A study of Homo sapiens with 8 samples.

Results

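The 6 loci described here are short stretches of the human genome chosen because FAIRE signal, a measure of open chromatin, was higher there after AIRE induction. They carry the names PRPSAP1, NPLOC4, NUMBL, SLC29A3, PTMA and FOXO3. Their members are all windows of the deposited table that start in 6 fixed intervals of the hg19 build. On chromosome 17 the member windows span 74349051 to 74350500 for PRPSAP1 and 79603601 to 79604400 for NPLOC4. Those of NUMBL span 41195351 to 41200200 on chromosome 19, and those of SLC29A3 span 73078501 to 73079750 on chromosome 10. Those of PTMA span 232571001 to 232579750 on chromosome 2, and those of FOXO3 span 108878701 to 108883950 on chromosome 6. They held 264 of 256141 windows of 150 bp, in 17 of 35741 merged regions. There were 27 windows at PRPSAP1, 14 at NPLOC4, 73 at NUMBL, 20 at SLC29A3, 71 at PTMA and 59 at FOXO3. The intervals were chosen on the difference between libraries with and without AIRE induction, so that difference is given below as a description, without a test. No hg19 annotation was used, so whether a window is promoter, exon or intron was not determined.

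FAIRE-seq reads out DNA that formaldehyde has crosslinked to little protein, recovered from the watery layer of a phenol extraction. Such DNA is poor in nucleosomes and typically comes from active promoters and enhancers. AIRE is a nuclear protein of thymic epithelial cells that raises the expression of many genes otherwise restricted to single tissues. It is known to act together with topoisomerase II, the enzyme that etoposide traps on cut DNA.

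The cells were AIRE-Tet, a Tet-On Advanced HEK293 line (human embryonic kidney) with inducible human AIRE. All groups used this line, with 2 biological replicates each. Control cells were untreated, and Dox cells received 1.5 µM doxycycline. Etop cells received 2 µM etoposide for 24 h, and DoxEtop cells received the same etoposide after 24 h of AIRE induction. How long Dox cells were induced is not recorded here, so DoxEtop and Dox may also differ in induction time. Whether that enters DoxEtop vs Dox or the interaction was not tested. Doxycycline without the transgene was not analysed here, so the drug and AIRE cannot be told apart, and whether the line is 1 clone was not given in the labels. Genomic windows hold no cell type markers, so the identity of the cells was not checked. Values are CPM (window counts over the TMM-scaled total of the library). Column totals ran from 4489871 to 5305079 with induction and from 4568818 to 8275911 without. Control replicate 1 stood nearer to induced cells than Control replicate 2 did. Over all windows its log2 CPM correlated at 0.369 to 0.506 with the induced libraries, against 0.00831 to 0.189 for Control replicate 2. Only its value with Dox replicate 1 (0.506) was above the 0.488 between the Control libraries. Values without Control replicate 1 are given as well. The 2 Etop libraries correlated at 0.35 with each other, and at 0.427 and 0.451 with Control replicate 2.

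RefSeq holds all 6 genes on the same chromosomes in GRCh38.p14. For 5 of them its promoter table has the 250 bases before the outermost start of the gene. These are printed 5′ to 3′ to show what these genes carry next to their start sites. Positions are those of GRCh38.p14 and cannot be set beside the hg19 windows, so which windows overlap these bases was not determined. Capitals mark matches, on either strand, to 1 of 7 short motifs. These are GGGCGG (the GC box bound by SP factors), CCAAT (the box bound by NFY), TATAAA (the TATA box), TGACTCA (bound by FOS and JUN), CGGAAG (an ETS factor core), GCGCATG (part of the NRF1 site) and AAGATGG (part of the YY1 site).
PRPSAP1, chr17:76354199-76354448, minus strand: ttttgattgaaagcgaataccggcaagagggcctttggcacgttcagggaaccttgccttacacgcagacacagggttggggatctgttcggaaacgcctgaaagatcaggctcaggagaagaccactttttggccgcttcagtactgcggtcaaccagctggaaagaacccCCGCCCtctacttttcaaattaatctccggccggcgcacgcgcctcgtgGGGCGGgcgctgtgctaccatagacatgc
NUMBL, chr19:40690652-40690901, minus strand: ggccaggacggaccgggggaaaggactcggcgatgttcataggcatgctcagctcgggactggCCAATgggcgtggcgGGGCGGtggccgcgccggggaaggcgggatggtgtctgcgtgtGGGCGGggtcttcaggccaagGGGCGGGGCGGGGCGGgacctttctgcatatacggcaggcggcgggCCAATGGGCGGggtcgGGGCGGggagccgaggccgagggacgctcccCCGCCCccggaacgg
SLC29A3, chr10:71319009-71319258, plus strand: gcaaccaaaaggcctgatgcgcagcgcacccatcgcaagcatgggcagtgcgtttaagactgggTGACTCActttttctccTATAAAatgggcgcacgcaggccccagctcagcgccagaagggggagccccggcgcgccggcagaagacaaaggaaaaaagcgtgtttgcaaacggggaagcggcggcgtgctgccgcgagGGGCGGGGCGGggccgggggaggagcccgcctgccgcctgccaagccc
PTMA, chr2:231708275-231708524, plus strand: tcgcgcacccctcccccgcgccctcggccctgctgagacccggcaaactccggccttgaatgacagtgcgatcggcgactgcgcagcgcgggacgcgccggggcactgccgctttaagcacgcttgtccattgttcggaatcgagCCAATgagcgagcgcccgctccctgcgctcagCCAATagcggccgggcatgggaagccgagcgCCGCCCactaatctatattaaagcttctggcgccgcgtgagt
FOXO3, chr6:108559575-108559824, plus strand: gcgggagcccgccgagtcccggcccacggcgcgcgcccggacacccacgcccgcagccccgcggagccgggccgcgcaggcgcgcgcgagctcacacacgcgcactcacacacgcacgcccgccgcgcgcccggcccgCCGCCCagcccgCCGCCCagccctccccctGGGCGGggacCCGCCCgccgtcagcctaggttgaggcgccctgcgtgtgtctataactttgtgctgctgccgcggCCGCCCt
The GC box was in 5 of 5, against 42.5% of 34941 RefSeq promoters of this length. There were 8 matches at NUMBL, 5 at FOXO3, 2 each at PRPSAP1 and SLC29A3, and 1 at PTMA, some of them overlapping. CCAAT was in 2 of 5 (NUMBL and PTMA), against 32.0%. TATAAA and TGACTCA were found at SLC29A3 alone, against 10.7% and 4.22% of all promoters. The ETS, NRF1 and YY1 letters, found in 16.4%, 3.74% and 3.70% of all promoters, had no match in these bases. The ratio of observed to expected CpG was 0.842 to 1.17, against a median of 0.556, and all 5 were above that median. A match describes the letters and is no sign of binding.

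At each locus, the lead window is the one with the highest AIRE log2 fold change among windows with a mean level higher than the table's median (3.42 CPM). The AIRE log2 fold change is induced minus not induced, from 1 fit over the 8 libraries with AIRE induction and etoposide as additive terms. Its SE takes in the spread between replicates and any departure from the additive terms, and it borrows from the spread of all windows. At the 6 lead windows, the 154 to 178 counts summed over the libraries split into 4 to 38 counts per library, so counting error is a large part of each value.

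PRPSAP1 encodes a protein that associates with phosphoribosyl pyrophosphate synthetase, the enzyme that supplies the sugar phosphate for nucleotides. Its lead window, from 74349751 to 74349900, had 0.963 and 1.50 CPM in Control, 1.15 and 3.95 in Etop, 4.39 and 7.94 in Dox, and 5.22 and 7.12 in DoxEtop. All 4 induced libraries were above the other 4, with Etop replicate 2 close below the lowest of them. The means were 6.17 ± 1.64 CPM with induction and 1.89 ± 1.39 CPM without (SD, n = 4 each), which on the log2 scale was a fold change of 1.81 (SE 0.37).

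SLC29A3 encodes a nucleoside transporter of intracellular membranes such as the lysosome. The lead window, from 73078951 to 73079100, had 2.77 and 1.95 CPM in Control, 1.15 and 1.97 in Etop, 5.34 and 7.06 in Dox, and 6.72 and 5.74 in DoxEtop. The groups with induction did not overlap those without, and the 2 replicates of each group lay close together. The means were 6.21 ± 0.807 and 1.96 ± 0.662 CPM (SD, n = 4 each), and the fitted log2 fold change was 1.67 (SE 0.34).

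NUMBL encodes an adaptor protein related to NUMB, an inhibitor of Notch signaling. Its lead window, from 41196301 to 41196450, had 1.32 and 2.25 CPM in Control, 0.718 and 2.41 in Etop, 4.39 and 5.73 in Dox, and 7.09 and 5.14 in DoxEtop. Here too the induced libraries all lay above the others, and Etop replicate 1, with 5 counts, was the lowest. The log2 fold change was 1.77 (SE 0.38), from means of 5.59 ± 1.14 and 1.68 ± 0.798 CPM (SD, n = 4 each).

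PTMA encodes prothymosin alpha, a small and very acidic nuclear protein that binds histones. From 232575101 to 232575250, its lead window had 1.93 and 1.35 CPM in Control, 1.72 and 0.877 in Etop, 6.10 and 4.85 in Dox, and 5.97 and 5.34 in DoxEtop. The gap between the arms was wide, from 1.93 CPM in the highest library without induction to 4.85 CPM in the lowest with it. The means were 5.57 ± 0.581 and 1.47 ± 0.462 CPM (SD, n = 4 each), and the log2 fold change of 1.87 (SE 0.37) ranked 1 among all windows above the median level.

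NPLOC4 encodes a cofactor of the segregase VCP, which pulls ubiquitinated proteins out of complexes for degradation. The lead window, from 79603901 to 79604050, had 1.32 and 1.2 CPM in Control, 3.16 and 3.95 in Etop, 6.48 and 4.85 in Dox, and 4.66 and 5.14 in DoxEtop. The arms did not overlap, but Etop lay between Control and the induced groups. Its log2 fold change of 1.25 (SE 0.36) ranked 345 among windows above the median level, against ranks of 3, 4 and 6 for PRPSAP1, NUMBL and SLC29A3.

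FOXO3 encodes a forkhead transcription factor that is held out of the nucleus by AKT signaling and drives stress and apoptosis genes. Its lead window, from 108883051 to 108883200, had 1.57 and 0.899 CPM in Control, 4.59 and 3.51 in Etop, 5.34 and 4.41 in Dox, and 4.85 and 4.75 in DoxEtop. The arms overlapped, since Etop replicate 1 was above Dox replicate 2, and the Control pair alone was low. The log2 fold change was 0.995 (SE 0.36) and ranked 5614 among all 256141 windows and 1891 among those above the median level. By the overlap of the arms, and not by this rank, the interval goes against a plain reading as a gain with AIRE induction.

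**Figure D1:**
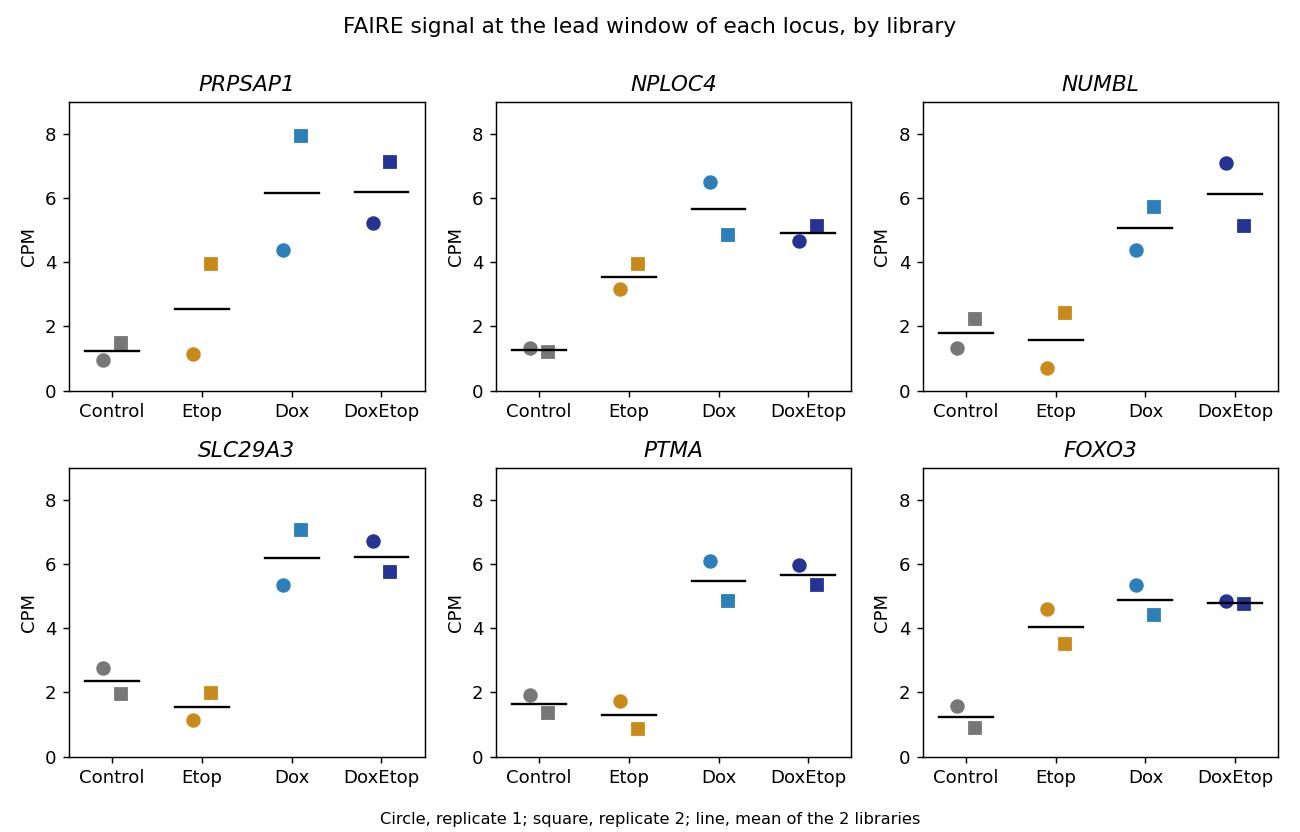
CPM of the lead window of each locus (y axis) in each of the 8 libraries, by group (x axis); circles are replicate 1, squares replicate 2, and lines the mean of the 2 libraries. At PTMA the induced libraries sit at 4.85 to 6.10 CPM and the others at 0.877 to 1.93, while at FOXO3 the Etop libraries, at 3.51 and 4.59, lie with the induced ones.

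Higher windows made up a part of each interval, and at PRPSAP1 and NUMBL windows near the lead window were lower. Over all 264 windows the median AIRE log2 fold change was 0.07, close to the 0.04 of all windows of the table, and 148 were above 0. A window is named called here where its adjusted p by edgeR's quasi-likelihood test was under 0.05. That held for 29 of the 264 windows called higher and 15 called lower, where 1.27% and 6.17% of the whole table were. The intervals were chosen on this contrast, so calls only mark places along each locus, and nothing is read from their number. Overlapping windows share fragments, so they are not independent. Leaving out a library leaves 1 in its group, so a lower count does not by itself tell which libraries the calls rest on. The count of 29 was lower with any single library left out. It was 11 without Control replicate 2, 11 without Dox replicate 2, 13 without DoxEtop replicate 1, 16 without Etop replicate 1, 17 without DoxEtop replicate 2 and 18 without Dox replicate 1. Without Control replicate 1 it was 21. The count of 15 was 8 without DoxEtop replicate 1 and 16 without Control replicate 1, and limma-voom called 5 higher and 0 lower. All 4 induced libraries lay above all 4 others at 40 of the 264 windows and below them at 25, and at 4.98% and 7.49% of all windows.

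At PRPSAP1, 6 adjacent windows from 74349601 to 74350000 were called higher, and 6 from 74350101 to 74350500, in the same merged region (74349051 to 74350500), were called lower. The lowest of these, starting at 74350351, had 3.01 and 4.94 CPM in Control, 6.17 and 4.6 in Etop, 1.14 and 1.54 in Dox, and 0.187 and 0.989 in DoxEtop. That is a log2 fold change of -2.27 (SE 0.46), and 1 to 7 counts in each induced library against 21 to 43 in each of the rest. The highest window of the region started at 74349851 or 74349901 in the 4 induced libraries. In the other 4 it started at 74349901 in Etop replicate 2, at 74350051 in Control replicate 2 and Etop replicate 1, and at 74350151 in Control replicate 1. Summed over windows that do not overlap, the region differed little, with 11.6 ± 2.27 and 10.2 ± 2.07 CPM per window (SD, n = 4 each) and a difference of 0.20 on the log2 scale (SE 0.15). Higher and lower windows thus lay side by side in 1 region.

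NUMBL had the same arrangement around its lead window. Windows called higher ran from 41196201 to 41196600 and again from 41198001 to 41198250, and windows called lower from 41195851 to 41196100, all in the region from 41195351 to 41198450. The window starting at 41195951 had a log2 fold change of -2.17 (SE 0.46), with 3 to 9 counts in each library with induction and 16 to 42 in each without. The summit of the region, its highest window, kept its place. It started at 41196751, 450 bp from the lead window, in all 8 libraries, at 12.8 to 17.6 CPM with induction and 10.8 to 14.4 CPM without. The lead window held 29.2% to 52.8% of the summit's level with induction and 5.0% to 20.8% without. Over the whole region, 3100 bp wide, the log2 fold change was 0.22 (SE 0.10). The next region, from 41198901 to 41199600, held 3 windows called lower, and all 4 induced libraries were below all 4 others there, with 5.58 ± 2.29 against 10.4 ± 2.50 CPM per window (SD, n = 4 each).

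At NPLOC4 the summit also kept its place. It started at 79604101 in all 8 libraries, at 8.77 to 11.2 CPM with induction and 4.64 to 8.99 CPM without. Here the 4 windows called higher, from 79603901 to 79604200, began with the lead window and overlapped the summit window, and no window was called lower. The region from 79603601 to 79604400 had 14.9 ± 1.71 and 10.0 ± 2.09 CPM per window (SD, n = 4 each). Its arms did not overlap, and the log2 fold change was 0.59 (SE 0.18).

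SLC29A3 had a pair of peaks in its region from 73078501 to 73079750. The windows called higher, 3 from 73078901 to 73079150, were all in the one around the lead window. In the window starting at 73079401, in the other peak, the arms overlapped, with 5.60 to 10.7 CPM with induction and 3.30 to 7.23 CPM without. Its AIRE log2 fold change was 0.49 (SE 0.27), with 0.11 (SE 0.38) for Dox vs Control and 0.92 (SE 0.40) for DoxEtop vs Etop. In Dox replicate 2 and DoxEtop replicate 1 the highest window of the region started at 73078901, while in Dox replicate 1 and DoxEtop replicate 2 it lay in the other peak, at 73079401. Without induction it started at 73079351 to 73079451 in 3 libraries and at 73078551 in Etop replicate 1. The log2 fold change of the whole region was 0.44 (SE 0.17).

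At PTMA the lead region was narrow, 500 bp from 232574851 to 232575350, and 5 of its 8 windows were called higher. It had 9.88 to 20.1 CPM per window with induction and 3.81 to 7.81 without. Its log2 fold change of 1.10 (SE 0.27) was the highest of the 17 regions. DoxEtop replicate 1 gave the 20.1 CPM, and the other 3 induced libraries had 9.88 to 11.6. The widest region of the interval, 2350 bp from 232571001 to 232573350, had a log2 fold change of 0.09 (SE 0.13). Inside it, 2 windows from 232572801 to 232573000 were called higher and 1 window, starting at 232571651, was called lower.

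In the FOXO3 interval no window was called higher, and the window starting at 108878701 was called lower (log2 fold change -1.59, SE 0.43). The lead region, from 108882951 to 108883350, had a log2 fold change of 0.96 (SE 0.36). The widest region, from 108880451 to 108882300, had 0.19 (SE 0.14). Some of its windows, around 108881901 (log2 fold change 0.99), had all 4 induced libraries above the others without being called.

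**Figure D2:**
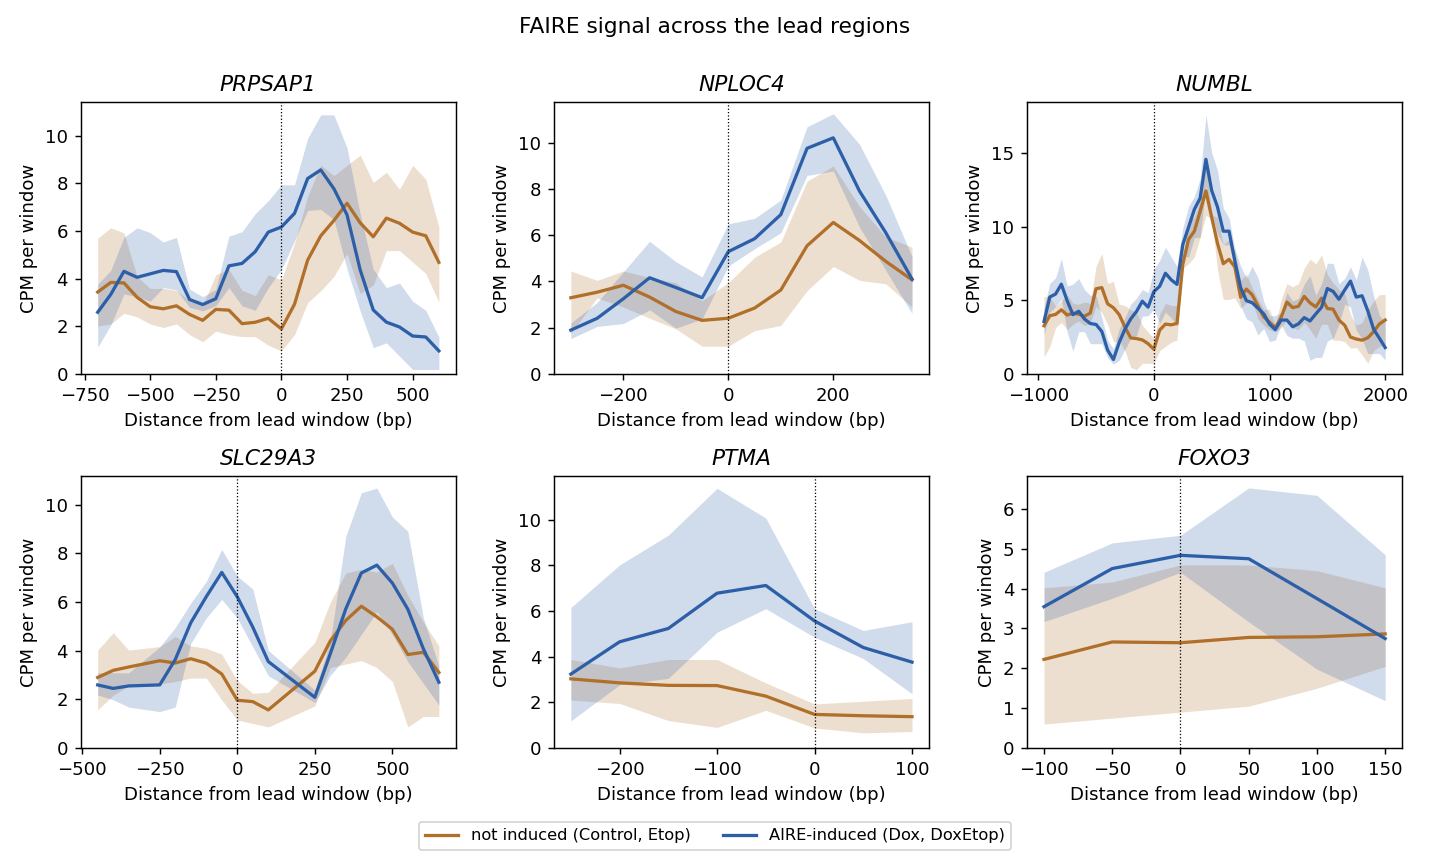
CPM per 150 bp window (y axis) against the distance of the window from the lead window in bp (x axis) across the lead region of each locus; lines are means of 4 libraries, bands run from the lowest to the highest library, and straight stretches bridge windows not in the table. At PRPSAP1 the induced libraries are higher at the lead window and lower 350 to 600 bp to its right, and at NUMBL the summit 450 bp to the right of the lead window stays in place.

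Over the 17 merged regions, the 6 lead regions had AIRE log2 fold changes of 0.20 to 1.10, and the other 11 had -0.88 to 0.50, with 6 of them above 0. At region level the arms were apart with induction higher at 2 lead regions, NPLOC4 and PTMA. The share of all regions with arms apart was not computed, and the lead regions were picked on this contrast, so nothing is read from that number. Windows called higher and windows called lower stood in the same region at PRPSAP1, NUMBL and the widest region of PTMA. These were 3 of the 6 regions here with a window called higher. Over the whole table it was 218 of 1636 such regions (13.3%). The regions at PRPSAP1, NUMBL and PTMA were wider than 97%, 99.9% and 99.6% of all regions, so they offered more windows to be called. The shares were not matched for width and rest on the contrast that chose the loci, so nothing is read from them.

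**Figure D3:**
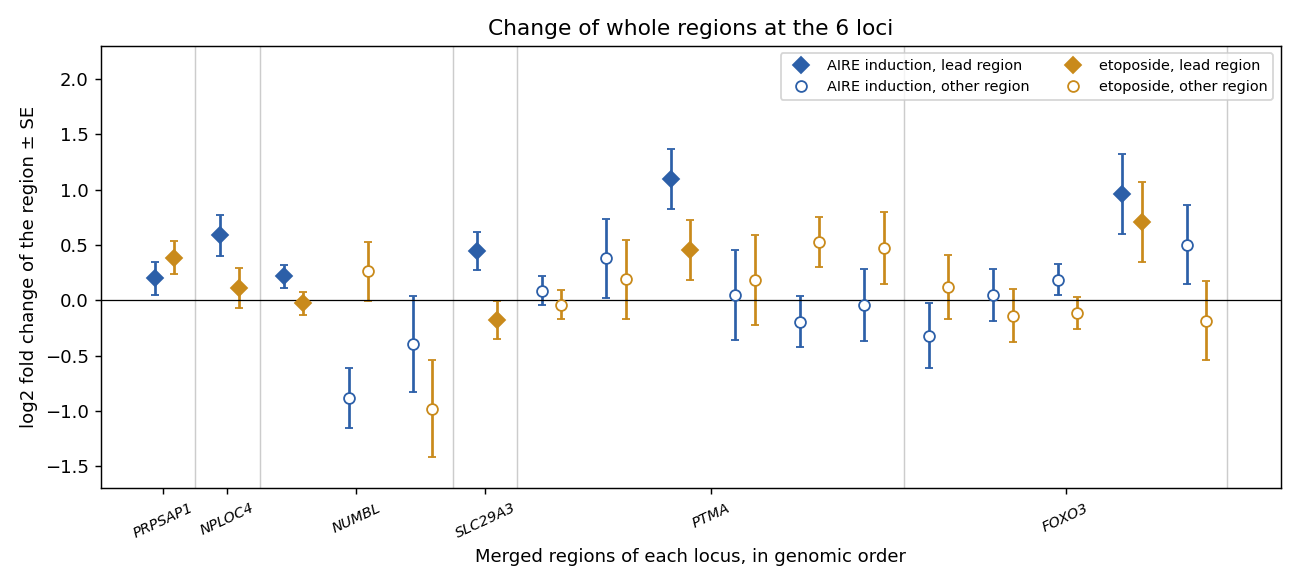
Log2 fold change with its SE (y axis) for AIRE induction (blue) and etoposide (orange) in each of the 17 merged regions, in genomic order within each locus (x axis); filled diamonds are lead regions and open circles other regions. The AIRE values of the lead regions are 0.20 to 1.10, and the region at -0.88 is the NUMBL neighbor.

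The AIRE difference was also taken within each etoposide state. At NUMBL, SLC29A3 and PTMA the lead windows had AIRE log2 fold changes of 1.51 (SE 0.53), 1.37 (SE 0.47) and 1.72 (SE 0.52) without etoposide (Dox vs Control). With etoposide (DoxEtop vs Etop) they had 2.06 (SE 0.56), 2.03 (SE 0.51) and 2.04 (SE 0.55). At PRPSAP1 the values were 2.32 (SE 0.54) without etoposide and 1.36 (SE 0.52) with it. NPLOC4 had 2.15 (SE 0.51) and 0.48 (SE 0.47), and FOXO3 had 1.94 (SE 0.53) and 0.23 (SE 0.47), where the value with etoposide was smaller than or close to its SE. The 2 comparisons share no library, but both are part of the contrast that chose the loci.

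Whether AIRE induction made a different difference with and without etoposide was tested as an interaction, and it was not detectable at any locus. At NPLOC4 the interaction was -1.67 (SE 0.70, unadjusted p = 0.0204) and at FOXO3 -1.72 (SE 0.71, unadjusted p = 0.0186), and the edgeR adjusted p over all windows was 0.999995 at both. The other 4 lead windows had -0.96 to 0.66. As whole regions 0 of the 17 passed by edgeR (0% of all regions). An unadjusted p under 0.05 was found for 3, with -0.73 (SE 0.35) at NPLOC4, -1.57 (SE 0.69) at FOXO3 and 0.68 (SE 0.34) at SLC29A3. The share of all regions with such a p was not computed, so nothing is read from that number. By edgeR 0 of the 264 windows passed, as 0% of the table did. Among them, 19 (7.20%) had an unadjusted p under 0.05 against 4.14% of all windows, and DESeq2 and limma-voom called 0 of the 264. Of these 19 windows, 8 were at FOXO3, 6 at PTMA, 2 each at PRPSAP1 and NPLOC4 and 1 at SLC29A3. In simulated counts, with the same spread for all windows and few changed ones, the test called 0 of 100 windows with a 4-fold interaction. In that setting, with 2 libraries a group, such differences were missed, so the lack of calls here does not show that there was none.

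Etoposide itself, the factor that did not choose the loci, was not detectable at them. Without induction (Etop vs Control) the lead windows went from 1.26 ± 0.0893 to 3.55 ± 0.557 CPM at NPLOC4 (SD, n = 2 each). The log2 difference there was 1.46 (SE 0.53, edgeR adjusted p = 0.863). FOXO3 went from 1.23 ± 0.471 to 4.05 ± 0.769 CPM, or 1.69 on the log2 scale (SE 0.53, edgeR adjusted p = 0.863). Both Etop libraries were above both Control libraries at these loci, but the differences did not pass. PRPSAP1 had 0.97 (SE 0.59), where Etop replicate 1 lay between the Control libraries, and NUMBL, SLC29A3 and PTMA had -0.27, -0.65 and -0.28. Of the 264 windows, 0 passed by edgeR for Etop vs Control (0% of the table) and 20 (7.58%) had an unadjusted p under 0.05, against 5.57% of all windows. For DoxEtop vs Dox 0 passed (0% of the table) and 13 (4.92%) had an unadjusted p under 0.05, against 4.26%. DESeq2 and limma-voom called 0 of the 264 in either. In induced cells (DoxEtop vs Dox) the 6 values were near 0, from -0.21 to 0.28 with SEs of 0.44 to 0.49. Etop vs Control and DoxEtop vs Dox share no library.

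In the additive model, edgeR called 0 of the 264 windows for etoposide, as it called 0% of the table, with a smallest adjusted p of 0.759. An unadjusted p under 0.05 was found for 18 of them (6.82%), against 5.83% of all windows, and DESeq2 and limma-voom called 0 of the 264. In simulated counts the same test called 81 of 100 windows changed 4-fold and 9 of 100 changed 2-fold, so changes of 2-fold would mostly have been missed. At PRPSAP1 22 of 27 overlapping windows had a log2 fold change above 0, with a median of 0.38, while at SLC29A3 3 of 20 did, with a median of -0.28, and over the table the share above 0 was 50%. At the other loci 9 of 14 (NPLOC4), 36 of 73 (NUMBL), 43 of 71 (PTMA) and 27 of 59 (FOXO3) were above 0. As whole regions, PRPSAP1 had 12.3 ± 2.00 CPM per window with etoposide and 9.47 ± 1.20 without (SD, n = 4 each), and the log2 difference was 0.38 (SE 0.15, edgeR adjusted p = 0.742). Of the 17 regions 0 passed by edgeR, against 0.00839% of all regions, and 3 had an unadjusted p under 0.05. Besides PRPSAP1 these were the PTMA region from 232578351 to 232578900 (log2 fold change 0.52, SE 0.23) and the single NUMBL window region from 41200051 to 41200200 (-0.98, SE 0.44). Here too the share of all regions with such a p was not computed, so nothing is read from their number.

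The 4 libraries with etoposide were above the other 4 at 8 windows (1.3% of all windows) and below them at 2 (1.29%). Of the 8, 6 were at PTMA, where the region from 232579351 to 232579750 had 10.5 to 11.1 CPM per window with etoposide and 5.97 to 9.60 without. Its log2 fold change was 0.47 (SE 0.32, edgeR adjusted p = 0.889). This region did not follow AIRE induction, with an AIRE log2 fold change of -0.04 (SE 0.32).

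**Figure D4:**
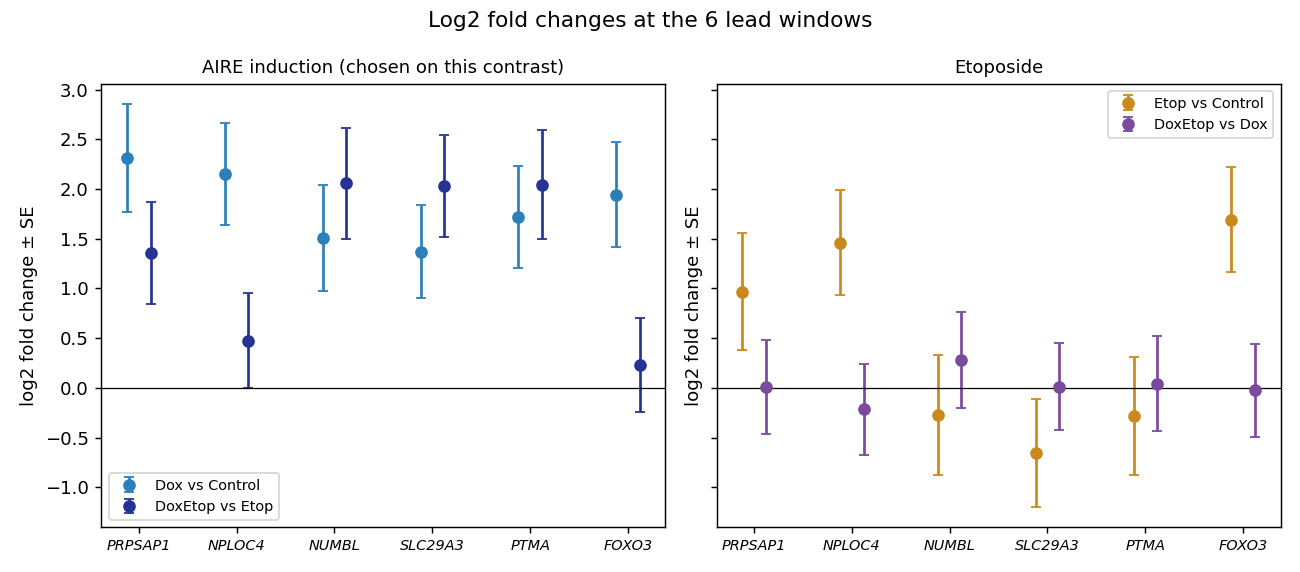
Log2 fold change with its SE (y axis) at the 6 lead windows (x axis), left for AIRE induction without (Dox vs Control) and with etoposide (DoxEtop vs Etop), right for etoposide without (Etop vs Control) and with induction (DoxEtop vs Dox). At NPLOC4 and FOXO3 the AIRE values are 2.15 and 1.94 without etoposide and 0.48 and 0.23 with it, and the values for etoposide in induced cells are all near 0.

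Averaged over the 6 lead regions, log2 CPM, centred per region, was -0.38 and -0.61 in Control, -0.10 and -0.06 in Etop, 0.27 and 0.26 in Dox, and 0.34 and 0.29 in DoxEtop. In this average, Control was thus the lowest group and Etop stood between it and the induced ones. By group means that order held at the NPLOC4, PTMA and FOXO3 lead regions only. Etop was below Control at SLC29A3 (7.52 and 10.7 CPM per window) and slightly at NUMBL (12.5 and 12.7). At PRPSAP1 Etop (11.9) was above Dox (10.5). Each lead region followed this mean profile to a different degree, with a Pearson r over the 8 libraries of 0.93 at NPLOC4, 0.91 at PTMA, 0.91 at FOXO3, 0.63 at PRPSAP1, 0.47 at NUMBL and 0.34 at SLC29A3, where each region is itself part of the mean. Outside the 6 loci, 17858 regions above the median level were compared with the same profile. The 5 most alike were on chromosome 1 from 19638051 to 19639350 (r = 0.992) and from 94312551 to 94313800 (r = 0.988), chromosome 6 from 35699151 to 35700150 (r = 0.990), chromosome 7 from 69062351 to 69063650 (r = 0.982) and chromosome 3 from 186284851 to 186285400 (r = 0.981). The first of them had 6.82 and 5.52 CPM per window in Control, 8.24 and 8.84 in Etop, 13.0 and 11.9 in Dox, and 12.4 and 12.9 in DoxEtop. All 5 had every induced library above every other library, which their choice by likeness to a profile with that same order had nearly fixed. The correlations rest on 8 libraries, share their scaling and were picked as the highest of many, so they are a description.

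Lead regions other than those of PTMA and FOXO3 were wide for this table. PRPSAP1 (1450 bp), NUMBL (3100 bp) and SLC29A3 (1250 bp) were wider than 97%, 99.9% and 95% of all regions and NPLOC4 (800 bp) than 83.4%, where the median is 350 bp. Levels were also above most, with the lead regions higher than 62.8% (FOXO3) to 96.4% (NUMBL) of regions. Lead windows were taken as the highest among windows above the median level, a rule that favors high levels and regions with many windows.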

How the data were processed

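The authors deposited 1 table of raw counts per window of 150 bp, placed every 50 bp on hg19, with 1 column per library. The submitters' processing notes name Trim Galore, Bowtie2 and Bowtie and give no version of any. How windows were chosen and fragments counted is not given in the sources used here; every window held at least 111 counts over the 8 libraries, so windows at which few libraries had signal can be missing. Tests on these counts used edgeR 4.0.16 under R 4.3.3 (quasi-likelihood F tests, TMM scaling, Benjamini-Hochberg adjustment over all 256141 windows at 0.05). filterByExpr removed 0 windows. An additive model (5 residual degrees of freedom) gave AIRE induction and etoposide. A model with 1 mean per group (4 degrees of freedom) gave the interaction and simple effects. SE is the absolute log2 fold change divided by the square root of F. The prior count for log2 CPM was 2. Regions join windows no more than 100 bp apart, and a region's count sums windows that do not overlap. Alternatives were RLE scaling, loess offsets, limma-voom (limma 3.58.1), DESeq2 1.42.0, windows above the median level, a replicate block and leaving out each library. The fits were tested on simulated counts. The loci, the rules and the motifs were chosen with earlier results of these data known. Lead windows and lead regions were named by the rule given in the text, together with extremes of each interval and the 5 regions most like the lead regions. Related gene families were not analysed, since no hg19 annotation was used.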

Additional observations from a re-analysis of the deposited data

Results flagged for a closer look

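The 4 libraries of each arm were searched for a library far from the others at the lead windows and lead regions, 24 sets in all, of which chance flags about 1 in 20. At the PTMA lead region DoxEtop replicate 1 had 20.1 CPM per window, against 9.88 to 11.6 in the other 3 induced libraries. At the PRPSAP1 lead region DoxEtop replicate 2 had 15.0 CPM per window, against 10.3 to 10.7 in the other 3.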

How the results depend on the processing

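The mean AIRE log2 fold change over the 6 lead windows was 1.56 and stayed at 1.51 to 1.58 with other tools, scalings, the filter and the block, and at 1.50 to 1.71 when single libraries were left out. Each lead window kept a value above 0 in all 15 fits, from 0.72 to 1.31 at FOXO3 and from 1.54 to 2.34 at PRPSAP1, the highest without Etop replicate 2. The lead windows were picked as the highest of this same contrast, so their values run high. Refits of the same counts could hardly fall below 0 and describe the dependence on processing only. Windows of the loci called higher numbered 5 with limma-voom and 19 with windows above the median level alone, where fewer windows were tested, and 11 to 26 with single libraries left out. Windows called lower numbered 0 with limma-voom, 7 with that filter and 8 to 18 with single libraries left out. The cause was not tested for limma-voom.

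For etoposide and the interaction, 0 windows and 0 regions of the loci passed in any fit. Over the whole table, etoposide called 3 windows with DESeq2, 7 with the replicate block and 0 to 23 with single libraries left out (23 without Etop replicate 1). Etop vs Control called 5 with the block and 0 to 218 with libraries left out (218 without Etop replicate 2), DoxEtop vs Dox called 8 with limma-voom, and the interaction 0 to 5 (5 without Control replicate 2). The cause was not tested. Deviations of same-numbered libraries correlated at -0.07 to 0.12, so no pairing by replicate number was seen, though it is not excluded. The block left the etoposide and interaction calls at the loci at 0. For AIRE induction it gave 28 windows called higher and 14 lower, against 29 and 15 in the main fit.

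Etoposide and interaction values that were not called changed sign at 3 loci, among them the interactions of -0.96 at PRPSAP1 and 0.55 at NUMBL. With limma-voom the etoposide log2 fold change at PTMA was 0.0181. With single libraries left out, the etoposide value ran from -0.0115 to 0.739 at PRPSAP1, from -0.12 to 0.332 at NUMBL and from -0.195 to 0.0508 at PTMA. The interaction ran from -1.68 to 0.0826 at PRPSAP1, from -0.17 to 1.55 at NUMBL and from -0.0189 to 0.943 at PTMA. Leaving out a library leaves 1 in its group, which is assumed to vary like the others.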
